A study of Mus musculus with 12 samples.

Results

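Messenger RNA levels of 40 nucleolar ribosome assembly factors were followed in mouse T-cell acute lymphoblastic leukemia (T-ALL) lines treated with PKF118-310, a small molecule that interferes with the binding of β-catenin to Tcf/Lef proteins. The 40 genes were picked by symbol from 52535 gene entries, and all 40 were measured in every library. They were picked because treated and control libraries had been seen to differ in opposite directions between lines. Their treatment values, the calls of the fits over all genes included, are therefore given below as a description and support no statement about the list.

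The libraries came from 3 lines, named 240, 242 and 352, all Akt2;Dlx5 double transgenic. In these mice both transgenes are driven by the Lck promoter, which acts in developing T cells, and each line came from the lymphoma of a different animal. Each line gave 1 PKF118-310 library and 1 control library (placebo-treated), so there were 3 PKF118-310 and 3 control libraries of poly(A) RNA, each run in 2 lanes whose counts were summed. The dose and the time of treatment are not part of the sample labels. A figure legend of the study speaks of separate control and separate treated cultures of each line, while the labels describe lanes of a single library, and the labels were followed. Nothing in the 2 groups other than the inhibitor was said to differ, and all cells were grown in IMDM with serum.

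Ribosomes are built in the nucleolus. RNA polymerase I makes a long precursor RNA there, small nucleolar ribonucleoproteins (snoRNPs) guide its methylation and pseudouridylation, and a large particle, the small subunit processome, folds and cuts it. Other factors, among them the PeBoW complex of Pes1, Bop1 and Wdr12, mature the large subunit. Many of these genes are known targets of Myc, and growing lymphoid cells express them strongly.

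The treated library of line 242 stood apart from the other 5 in several ways. It held 604984 counts, against 3354980 in its control, and the other 4 held from 3160824 to 13766638. Mitochondrially encoded genes made up 11.8% of its counts, against 2.94% in its control and 1.84% to 3.10% elsewhere. When every library was thinned to 604984 counts, 21241 genes kept a count in it, against 11207 in its control and 11546 to 12678 in the other 4 libraries. Genes outside the tested set held 7.46% of its counts, against 0.563% in its control. A count of 0 allows up to 3 counts, a level of 4.96 CPM (counts scaled to the library total) in this library and of 0.218 to 0.949 CPM in the others. T-cell markers (13 to 15 of 15 detected per library) summed to 2888 CPM in it and 6047 CPM in its control, with 3812 to 6652 CPM in the other libraries. B-cell markers summed to 74.4 CPM in it, against 0 in its control and at most 3.16 CPM elsewhere, and 71.1 CPM of that came from Pax5, while Cd79b was at 0. Fibroblast markers reached 38.0 CPM, against 0.298 CPM in its control, with 4 of 5 detected. Their part in the results for line 242 was not tested, and every result on the 40 genes is given for each line or with and without line 242.

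Since PKF118-310 acts on Tcf binding and Myc binds E-boxes, the sequence before the genes was searched for both motifs. RefSeq promoters (GRCm38.p6) matched 35 of the 40 genes, all but Fbl, Npm1, Rrp12, Bop1 and Rrs1, and the 250 bases before the transcript start were read on both strands. The Tcf core CTTTGA was present before 5 of 35 genes (14.3%), against 12.4% of the 7905 tested genes with a promoter and 15.8% of all 27025 promoters. Windows around the motif are shown for 4 of these genes, 5′ to 3′ on the strand of the gene, with the motif in capitals (TCAAAG is its reverse complement). The window of Heatr1, the fifth, lies within the gene's own span in the files.
Wdr75, chr1:45795046-45795101, plus strand: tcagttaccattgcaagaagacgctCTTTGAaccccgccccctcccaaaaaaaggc
Ncl, chr1:86359590-86359645, minus strand: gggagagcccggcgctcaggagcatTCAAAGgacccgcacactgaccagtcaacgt
Noc2l, chr4:156235841-156235896, plus strand: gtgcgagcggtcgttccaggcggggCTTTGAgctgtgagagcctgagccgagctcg
Noc4l, chr5:110653424-110653479, minus strand: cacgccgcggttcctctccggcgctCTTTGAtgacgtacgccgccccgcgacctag

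The palindromic E-box CACGTG stood before 2 of the 35 genes (5.71%), Nop2 and Utp18, against 10.6% of tested genes and 6.86% of all promoters. Both windows are shown because their genes differ in the treatment values below.
Nop2, chr6:125131798-125131853, plus strand: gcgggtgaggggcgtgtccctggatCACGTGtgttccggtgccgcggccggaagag
Utp18, chr11:93885767-93885811, minus strand: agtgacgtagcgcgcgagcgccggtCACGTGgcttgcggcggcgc

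The Ets motif CCGGAAGT was found before 4 genes (Bms1, Gar1, Heatr1 and Nhp2, 11.4%), against 7.82% of tested genes and 3.23% of all promoters. For Heatr1 and Nhp2 this motif lies within the gene's own span in the files. The Nrf1 motif GCGCATGC was found before 1 gene (Ftsj3, 2.86%), against 5.77% of tested genes and 2.56% of all promoters. No motif is contained in another, both strands were read for each, and a match describes the letters only.

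To see how much of each library went to these genes, their counts were summed. The 40 genes took 1.19% of the counts in PKF118-310 cells of line 240, against 0.769% in its control, and 1.24% in PKF118-310 cells of line 352, against 0.924% in its control. In line 242 they took 0.484% in PKF118-310 cells, against 1.20% in the control. The 95% Wilson intervals, which cover counting error only, ran from 0.467% to 0.502% for the treated library of line 242 and were narrower in the other 5. The control of line 242 thus lay at the level of the treated libraries of lines 240 and 352, and its treated library lay below all others. In these bulk samples, fewer cells with a high level and less RNA per cell cannot be told apart.

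**Figure D1:**
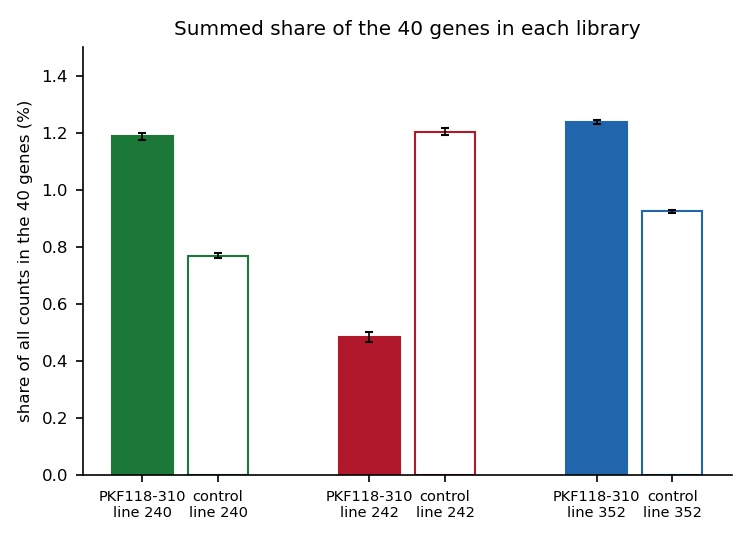
Share of all counts (%, vertical axis) that fell in the 40 genes, for each of the 6 libraries (filled bars: PKF118-310, open bars: control; error bars: 95% Wilson interval). PKF118-310 bars stand at 1.19% and 1.24% in lines 240 and 352, against 0.769% and 0.924% in their controls, and at 0.484% in line 242, against 1.20% in its control.

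Within each line, the log2 ratio of PKF118-310 over control was taken from CPM scaled by the trimmed mean of M-values (TMM) with a prior count of 2. CPM printed from here on are scaled by TMM over the counts of the tested genes, without the prior count. The shares, marker values and limit for a count of 0 given above use library totals. Values after ± in this comparison are half-widths of the 95% counting interval. All 40 ratios were above 0 in line 240 (median 0.73, lowest 0.17, highest 1.29) and in line 352 (median 0.46, lowest 0.15, highest 0.88), and all 40 were below 0 in line 242 (median -1.23, lowest -2.14, highest -0.01, with 39 below 0 when scaled by totals of the tested genes without TMM). This pattern of signs was found in 18.7% of the 10331 tested genes, and since it was the reason for choosing the 40 genes nothing is read from their count. The median over all tested genes was 0.00 in each line. The counting interval included 0 for 1 gene in line 240 (Ddx10), for 5 in line 242 (Wdr75, Utp18, Nop14, Bms1 and Noc3l) and for none in line 352. In line 352 the 2 lanes of each library differed by more than counting error, and the interval leaves this out. The ratio passed 2-fold in 7 genes in line 240, 24 in line 242 and 0 in line 352. It was larger in line 240 than in line 352 for 37 of the 40 genes, and for 54.3% of all tested genes.

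**Figure D2:**
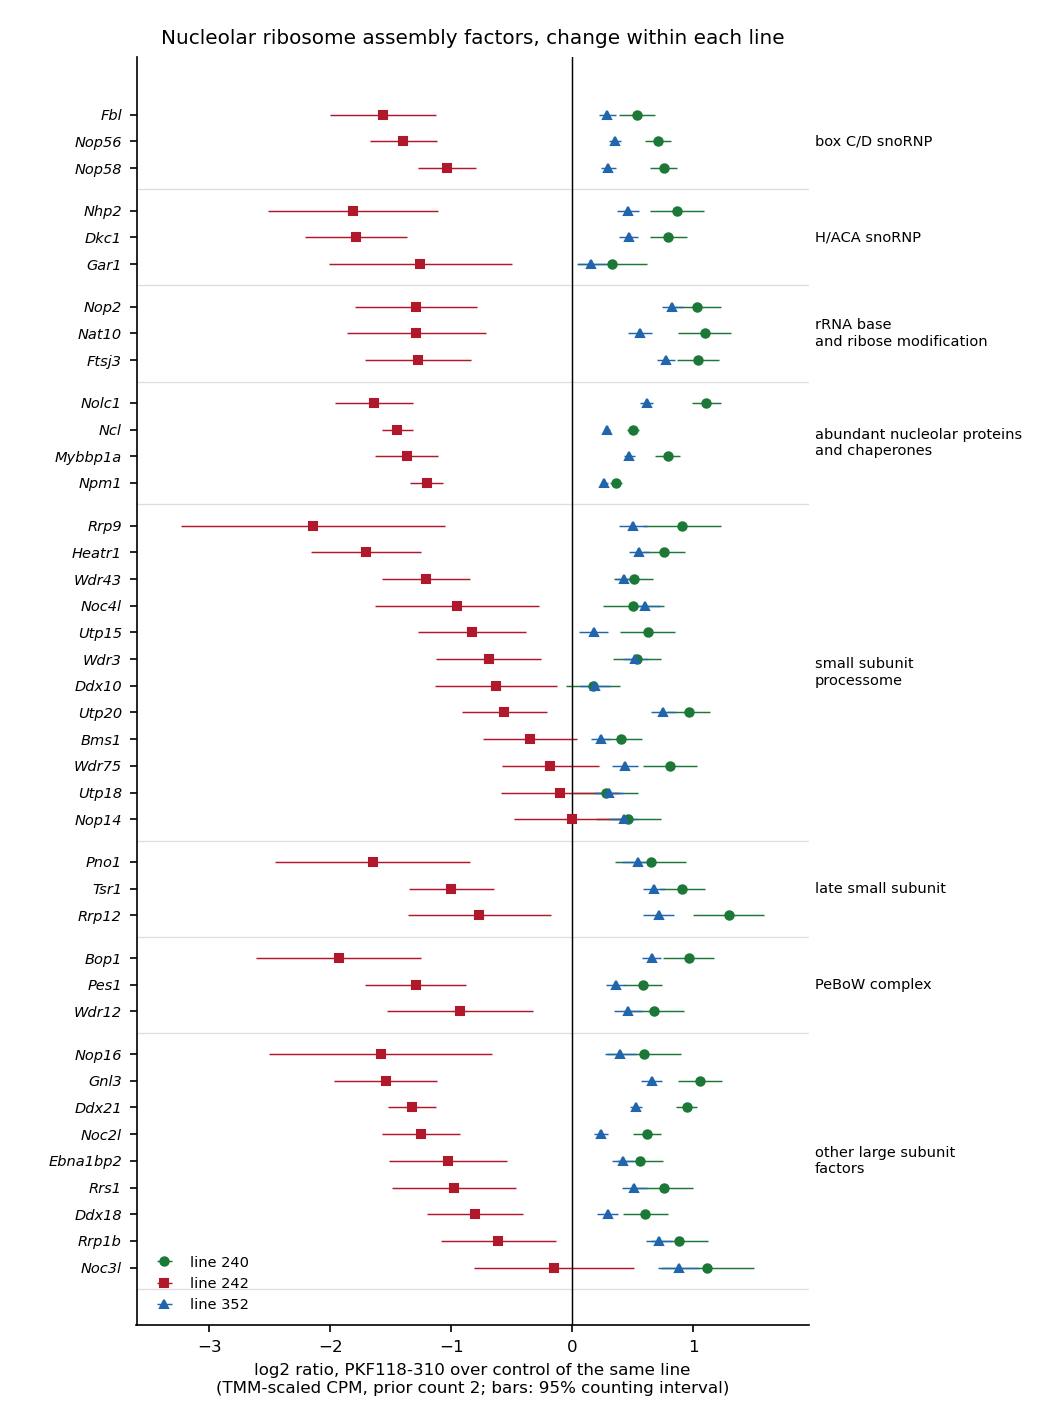
Log2 ratio of PKF118-310 over control within each line (horizontal axis, TMM-scaled CPM with a prior count of 2) for the 40 genes, grouped by role and ordered by the ratio in line 242, with 95% counting intervals as bars. Circles (line 240) and triangles (line 352) lie above 0 for all 40 genes, while squares (line 242) lie between -2.14 for Rrp9 and -0.01 for Nop14.

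The box C/D snoRNP carries the ribose methylation of rRNA, with Fbl as its methyltransferase and Nop56 and Nop58 as its core scaffold. Nop56 had 516, 208 and 496 CPM in PKF118-310 libraries of lines 240, 242 and 352, against 316, 548 and 388 CPM in their controls. Nop58 had 483, 277 and 342 CPM in PKF118-310 cells, against 286, 567 and 278 CPM in controls. In both genes the control of line 242 was the highest of the 6 libraries and its treated library the lowest, by a narrow margin for Nop58. Ratios in line 242 were -1.40 ± 0.28 for Nop56, -1.03 ± 0.24 for Nop58 and -1.56 ± 0.44 for Fbl.

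The H/ACA snoRNP makes pseudouridine in rRNA. Its enzyme is Dkc1, which is mutated in human dyskeratosis congenita, and Nhp2 and Gar1 are core partners. Dkc1 had 255, 87.2 and 225 CPM in PKF118-310 cells of lines 240, 242 and 352, against 147, 302 and 163 CPM in controls. Nhp2 had 123, 31.6 and 173 CPM in PKF118-310 cells, against 67.7, 111 and 126 CPM in controls. Gar1 had 61.9, 27.8 and 85.7 CPM in PKF118-310 cells, against 49.1, 67.0 and 76.9 CPM in controls. The treated library of line 242 was the lowest of 6 for each of these genes. Gar1 had the smallest ratio of all 40 genes in line 352, at 0.15 ± 0.12.

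Nop2, a methyltransferase of rRNA cytosine, Nat10, the enzyme that acetylates rRNA cytidine, and Ftsj3, a ribose methyltransferase described in human cells, are rRNA-modifying enzymes that were grouped apart from the snoRNPs. Nop2 had 173, 63.1 and 215 CPM in PKF118-310 cells of lines 240, 242 and 352, against 84.8, 155 and 121 CPM in controls. Ftsj3 had 219, 83.5 and 269 CPM in PKF118-310 cells, against 107, 203 and 158 CPM in controls. For both, the treated libraries of lines 240 and 352 were above all 3 controls, and the treated library of line 242 was below them. Ratios of the 3 genes were between 1.03 and 1.09 in line 240 and between 0.56 and 0.83 in line 352. In line 242 they were between -1.29 and -1.27, the narrowest range among the 8 roles there. The counting half-widths of Nop2, Nat10 and Ftsj3 in line 242 were 0.50, 0.57 and 0.44, much wider than that range.

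Nucleolin (Ncl) and nucleophosmin (Npm1) are the abundant RNA-binding proteins and chaperones of the nucleolus. Ncl had 2339, 961 and 2410 CPM in PKF118-310 cells of lines 240, 242 and 352, against 1651, 2621 and 1978 CPM in controls. Npm1 had 1950, 828 and 1772 CPM in PKF118-310 cells, against 1517, 1908 and 1475 CPM in controls. In lines 240 and 352 their ratios, 0.50 ± 0.05 and 0.29 ± 0.02 for Ncl and 0.36 ± 0.05 and 0.26 ± 0.03 for Npm1, were below the medians of the 40 genes. Together these genes supplied 35.8%, 32.9% and 35.2% of the summed counts of the 40 genes in PKF118-310 cells, against 41.2%, 35.7% and 38.3% in controls. Nolc1, a chaperone that binds snoRNPs, had a larger ratio in line 240 (1.11 ± 0.12) and -1.64 ± 0.32 in line 242.

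The small subunit processome was represented by 12 genes. Heatr1 and Wdr43 belong to its UtpA subcomplex, which binds the precursor RNA first, and Rrp9 is a protein of the U3 snoRNP at its centre. Wdr43 had 209, 121 and 232 CPM in PKF118-310 cells of lines 240, 242 and 352, against 147, 279 and 172 CPM in controls. Heatr1 had 196, 76.1 and 211 CPM in PKF118-310 cells, against 116, 249 and 144 CPM in controls. Rrp9 had 60.3, 12.99 and 102 CPM in PKF118-310 cells, against 32.0, 58.5 and 71.6 CPM in controls. The treated library of line 242 was below all 5 others in each, and for Rrp9 it rested on 7 counts, the fewest of any of the 40 genes in any library.

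Ddx10, a DEAD-box helicase, had 94.1, 65.0 and 80.7 CPM in PKF118-310 cells, against 83.6, 101 and 70.7 CPM in controls. Its ratio was the smallest of the 40 genes in line 240 (0.17 ± 0.23), where treated and control cells could not be separated at this depth. The other 8 genes of the processome (Utp15, Wdr75, Utp18, Wdr3, Utp20, Nop14, Noc4l and Bms1) had ratios from -0.95 to -0.01 in line 242. The 12 genes had the median nearest 0 of the 8 roles there, at -0.66. They also had the widest range, from -2.14 ± 1.09 for Rrp9 to -0.01 ± 0.47 for Nop14, and are the largest role.

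Rrp12, Tsr1 and Pno1 act late, as the small subunit is exported and finished. Tsr1 had 189, 130 and 186 CPM in PKF118-310 cells of lines 240, 242 and 352, against 101, 260 and 116 CPM in controls. Rrp12 had 86.7, 46.4 and 94.6 CPM in PKF118-310 cells, against 35.2, 79.2 and 57.6 CPM in controls. For Tsr1 the treated library of line 242 was above the controls of lines 240 and 352, and for Rrp12 it was above the control of line 240 only. Rrp12 had the largest ratio of all 40 genes in line 240, at 1.29 ± 0.29.

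Pes1, Bop1 and Wdr12 form PeBoW, which is needed to process the large subunit rRNA. Pes1 had 227, 90.9 and 211 CPM in PKF118-310 cells of lines 240, 242 and 352, against 152, 223 and 165 CPM in controls. Bop1 had 142, 33.4 and 252 CPM in PKF118-310 cells, against 72.7, 128 and 160 CPM in controls. Both were lowest in the treated library of line 242, and Bop1 was higher in both libraries of line 352 than in all 4 of the other lines. Their ratios in line 242 were -1.29 ± 0.42 for Pes1 and -1.93 ± 0.68 for Bop1, with -0.93 ± 0.60 for Wdr12.

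Of the 9 other large subunit factors, Ddx21, an RNA helicase that in human cells also binds at RNA polymerase I and II genes, was the most abundant. Ddx21 had 823, 406 and 573 CPM in PKF118-310 cells of lines 240, 242 and 352, against 428, 1018 and 399 CPM in controls. Noc2l had 416, 152 and 383 CPM in PKF118-310 cells, against 271, 363 and 324 CPM in controls. Noc3l, which with Noc2l moves with the precursor of the large subunit in yeast, had 46.6, 39.0 and 56.8 CPM in PKF118-310 cells, against 21.3, 43.4 and 30.8 CPM in controls. The libraries of line 242 were close for Noc3l (-0.15 ± 0.66) and far apart for Ddx21 (-1.32 ± 0.20), and Noc3l had the largest ratio of the 40 genes in line 352 (0.88 ± 0.17). Rrs1, Ebna1bp2, Nop16, Ddx18, Rrp1b and Gnl3 (nucleostemin, a GTPase of proliferating cells) had ratios between 0.56 and 1.05 in line 240 and between 0.29 and 0.72 in line 352, and between -1.58 and -0.61 in line 242.

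Across all 3 lines, edgeR's quasi-likelihood F test with the line as a block called 0 of 10331 genes (0%) at an adjusted p of 0.05, and 570 genes had an unadjusted p below 0.05. DESeq2 called 45 genes (0.436%). None of the 40 genes was called by either tool, and none had an unadjusted edgeR p below 0.05. In lines 240 and 352 alone, edgeR called 589 of 11760 genes as higher in PKF118-310 cells (5.01%) and 696 as lower (5.92%). Of the 40 genes, 33 were among those called higher and 0 among those called lower, with a median log2 fold change of 0.57. The 7 that edgeR did not call were Gar1, Ncl, Npm1, Utp15, Utp18, Bms1 and Ddx10. Of Ncl, Npm1, Nolc1 and Mybbp1a, 3 were called higher by DESeq2, so its calls are not all among the 33. DESeq2 called 17 of the 40 higher and 0 lower in these 2 lines, with 0.91% of all tested genes higher and 1.34% lower, and edgeR without the line as a block called 0. These counts describe the contrast that chose the genes. With the line as a block, the p-values rest on how the treatment change differed between lines, each with 1 library per group. The fit of lines 240 and 352 leaves few residual degrees of freedom, so its test borrows spread from other genes. Without the block, differences in level between lines enter the spread as well.

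The control libraries differed in level as well, but they enter the ratios that chose the 40 genes. The orders below are therefore given as a description. The control of line 242 was the highest of the 3 controls for 34 of the 40 genes (34.9% of all tested genes), and the control of line 240 was the lowest for 34 (26.6%). The treated library of line 242 was the lowest of all 6 for 29 of the 40 genes (30.5% of all tested genes). It was also the lowest for 69.7% of 76 cytosolic ribosomal protein genes and 45.4% of 97 other ribosome assembly genes. Among those 97 genes the control of line 242 was the highest control for 61.9%, and that of line 240 the lowest for 62.9%. For the ribosomal protein genes these shares were 34.2% and 15.8%. For 15 of the 40 genes the control of line 242 was above the treated libraries of both other lines, as it was for 33.0% of all tested genes. The median level of the 40 genes was 155, 81.7 and 167 CPM in PKF118-310 cells of lines 240, 242 and 352, against 98.5, 143 and 121 CPM in controls.

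Other genes of ribosome production were read from further lists, chosen with earlier results of these data known. Of 97 other tested ribosome assembly genes, 75 had the pattern of signs of the 40 genes, against 18.7% of all tested genes. Their medians were 0.50 in line 240, -0.59 in line 242 and 0.37 in line 352. In lines 240 and 352, edgeR called 52 higher, 1 lower, and 44 did not pass, while DESeq2 called 10 higher and 0 lower. The most abundant of them, Rrp1, a large subunit factor, had 408, 243 and 339 CPM in PKF118-310 cells of lines 240, 242 and 352, against 332, 341 and 329 CPM in controls. Its log2 fold change in lines 240 and 352 was 0.16 ± 0.12 (SE, 4 libraries) and did not pass (edgeR adjusted p = 0.413).

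RNA polymerase I and its factors, which transcribe the rRNA genes, had 10 of 14 genes with the same signs and medians of 0.41, -0.29 and 0.23 in lines 240, 242 and 352. In lines 240 and 352, edgeR called 5 higher (7 at an unadjusted p of 0.05, 2 with DESeq2), 0 lower by either tool, and 9 did not pass. Ubtf, the factor that opens rRNA genes for the polymerase, had 335, 321 and 265 CPM in PKF118-310 cells, against 214, 418 and 230 CPM in controls. Its log2 fold change in lines 240 and 352 was 0.41 ± 0.12 (SE, edgeR adjusted p = 0.0528), which did not pass.

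The cytosolic ribosomal protein genes, which supply the proteins that the assembly factors put in place, were measured as well, with a median ratio of -0.51 in line 242, -0.09 in line 240, and -0.04 for line 352, and 11 of 76 had the pattern of signs. In lines 240 and 352, edgeR called 0 of the 76 (0 higher and 1 lower at an unadjusted p of 0.05), and DESeq2 called 1 lower. Rpl4 had 2759, 1880 and 2480 CPM in PKF118-310 cells, against 2773, 2634 and 2564 CPM in controls, with the libraries of line 242 the farthest apart. Myc had 241, 150 and 425 CPM in PKF118-310 cells, against 239, 354 and 399 CPM in controls, with a log2 fold change of 0.05 ± 0.11 (SE) in lines 240 and 352 that did not pass (edgeR adjusted p = 0.809). Of the 9 tested genes of the Myc network (Myc, Max and the Mxd, Mnt, Mlx and Mga partners among them), edgeR called 2 lower and 7 did not pass, and DESeq2 called 1 lower.

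**Figure D3:**
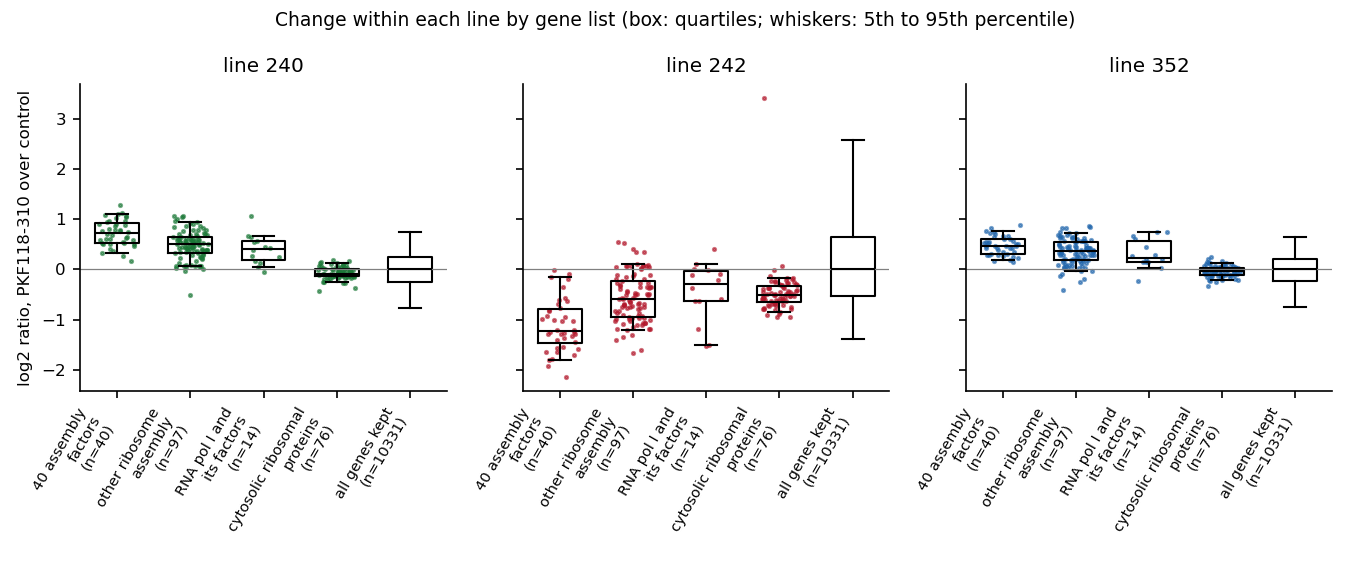
Log2 ratio of PKF118-310 over control within lines 240, 242 and 352 (vertical axis) for the 40 genes, 97 other ribosome assembly genes, 14 genes of RNA polymerase I and its factors, 76 cytosolic ribosomal protein genes and all 10331 tested genes (points: genes, boxes: quartiles, whiskers: 5th to 95th percentile). Medians of the 40 genes are 0.73, -1.23 and 0.46, against -0.09, -0.51 and -0.04 for the ribosomal protein genes and 0.00 for all genes.

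A gene's position and length were not used in choosing it, but the ratios were. Relations between length and ratio are therefore given as a description. The 40 genes lie on 16 chromosomes, and their span in the files (mm10) runs from 2.05 kb (Rrs1) to 149 kb (Ddx10). Across the 40 genes, Spearman's rho between span and ratio was 0.46 for line 242 and 0.04 for both line 240 and line 352. Over the 10192 tested genes whose symbol matched GENCODE vM21, this rho was 0.15 for line 242 and -0.11 for both line 240 and line 352. The 20 genes longer than the median span had a median ratio of -0.80 in line 242, against -1.33 for the 20 shorter ones, while the medians were 0.72 and 0.73 in line 240 and 0.45 and 0.47 in line 352. With exon length instead of span, rho over the 40 genes was 0.16 for line 242, 0.265 for line 240 and 0.163 for line 352. Over the same 10192 genes it was 0.163 for line 242. These are correlations across genes that share libraries, and genes are not independent replicates. The 5 genes nearest 0 in line 242 (Wdr75, Utp18, Nop14, Bms1 and Noc3l) all lie in the longer set. Their counting intervals there included 0.

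**Figure D4:**
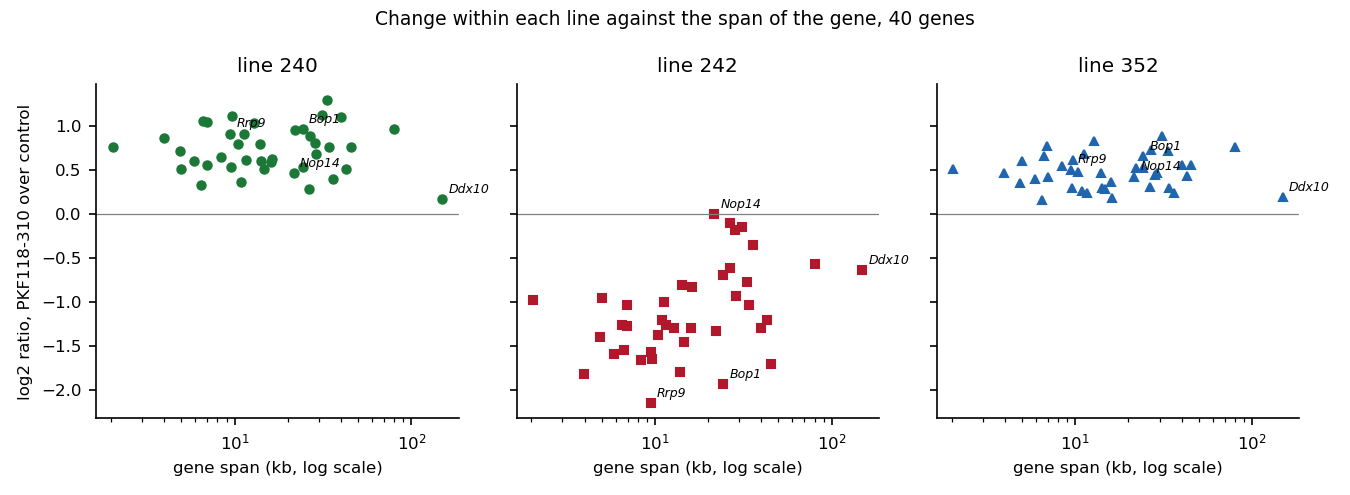
Log2 ratio of PKF118-310 over control (vertical axis) against the span of the gene (kb, log scale) for the 40 genes in each line, 1 point per gene. In line 242 the points run from -2.14 for Rrp9 to -0.01 for Nop14 with a rho of 0.46, and in lines 240 and 352 with a rho of 0.04.

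Level between genes was compared per kb of exon sequence (union of exons in GENCODE vM21, retained introns included). Npm1 was the highest and lay beyond the spread of the next gene, with 613 ± 89.6 CPM per kb over the 3 controls (SD), followed by Ncl with 204 ± 48.4 and Ddx21 with 119 ± 67.5. Noc2l (111 ± 16.1) and Nop56 (102 ± 29.0) came next and lay within the spread of Ddx21. At the low end stood Rrp1b (10.9 ± 3.21), Noc3l (8.004 ± 2.78) and Wdr12 (6.22 ± 1.10 CPM per kb), and the SD ranges of neighbours in this order overlapped. The order depends on the annotated exon length, which was 10188 bases for Ncl, 2665 for Npm1, 11955 for Wdr12 and 3977 for Noc3l. In CPM without division by length, the control mean of Ncl (2083) was above that of Npm1 (1634). In the same way Wdr12 (74.3) was above Noc3l (31.8).

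The difference between lines did not use the treatment contrast and was tested. Line 352 was set against line 240 over their 4 libraries with the treatment in the model (edgeR quasi-likelihood F test, 2 libraries per line, Benjamini-Hochberg adjustment over 11760 genes). Of the 40 genes, 15 were higher in line 352 at an adjusted p of 0.05, 0 were lower and 25 did not pass. At an unadjusted p of 0.05, 18 were higher and 2 lower, and DESeq2 called 4 higher and 0 lower. With edgeR the share called higher was 37.5% of the 40 genes, against 24.8% of all tested genes, of which 19.9% were lower. With DESeq2 it was 10% of the 40 genes, against 12.6% of all tested genes, of which 11.5% were lower, so that the 40 genes did not exceed the share over all genes there. The median log2 difference of the 40 genes was 0.20, against 0.03 over all genes.

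Bop1 (chr15:76452996-76477269) differed most, with 252 and 160 CPM in PKF118-310 and control cells of line 352, against 142 and 72.7 CPM in line 240. Its log2 fold change was 0.99 ± 0.11 (SE, edgeR adjusted p = 1.7e-05). Rrp9 (chr9:106475963-106485424) had 102 and 71.6 CPM in line 352, against 60.3 and 32.0 CPM in line 240, a log2 fold change of 0.95 ± 0.14 (edgeR adjusted p = 0.000104). Nhp2 (chr11:51619735-51623714) had 173 and 126 CPM in line 352, against 123 and 67.7 CPM in line 240, a log2 fold change of 0.69 ± 0.12 (edgeR adjusted p = 0.00051). For each of these 3 genes both libraries of line 352 were above both of line 240. The other 12 that passed were Rrs1, Nop16, Gar1, Ftsj3, Nop2, Nop14, Noc3l, Rrp12, Utp18, Nat10, Mybbp1a and Rrp1b, with log2 fold changes from 0.29 to 0.61.

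By role, all 3 of Nop2, Nat10 and Ftsj3 were higher in line 352 (0 of 3 with DESeq2), while 0 of the 3 box C/D proteins passed, with 0 also at an unadjusted p of 0.05 and with DESeq2. Ncl (0.16 ± 0.14) and Npm1 (-0.08 ± 0.13) did not pass either. The lowest values were those of Ddx21, at -0.31 ± 0.13 (edgeR adjusted p = 0.0717), and Nop58, at -0.26 ± 0.13 (edgeR adjusted p = 0.112). Myc was higher in line 352, at 0.78 ± 0.11 (edgeR adjusted p = 9.3e-05). Of the 97 other assembly genes 31 were higher, 5 lower and 61 did not pass (16 higher and 2 lower with DESeq2). Of the 76 ribosomal protein genes 9 were higher, 34 lower and 33 did not pass. The libraries of line 352 held 13766638 and 13221186 counts, against 3160824 and 4031144 in line 240, and the part of depth was not tested beyond thinning. The count of 15 genes became 8 of 40 (20%) after thinning all libraries to 604984 counts, near the 15.9% of all genes called higher there. It became 0 without the treatment term, where 13.5% of all genes were higher, and 0 with all 6 libraries in the fit, where 2.32% were.

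**Figure D5:**
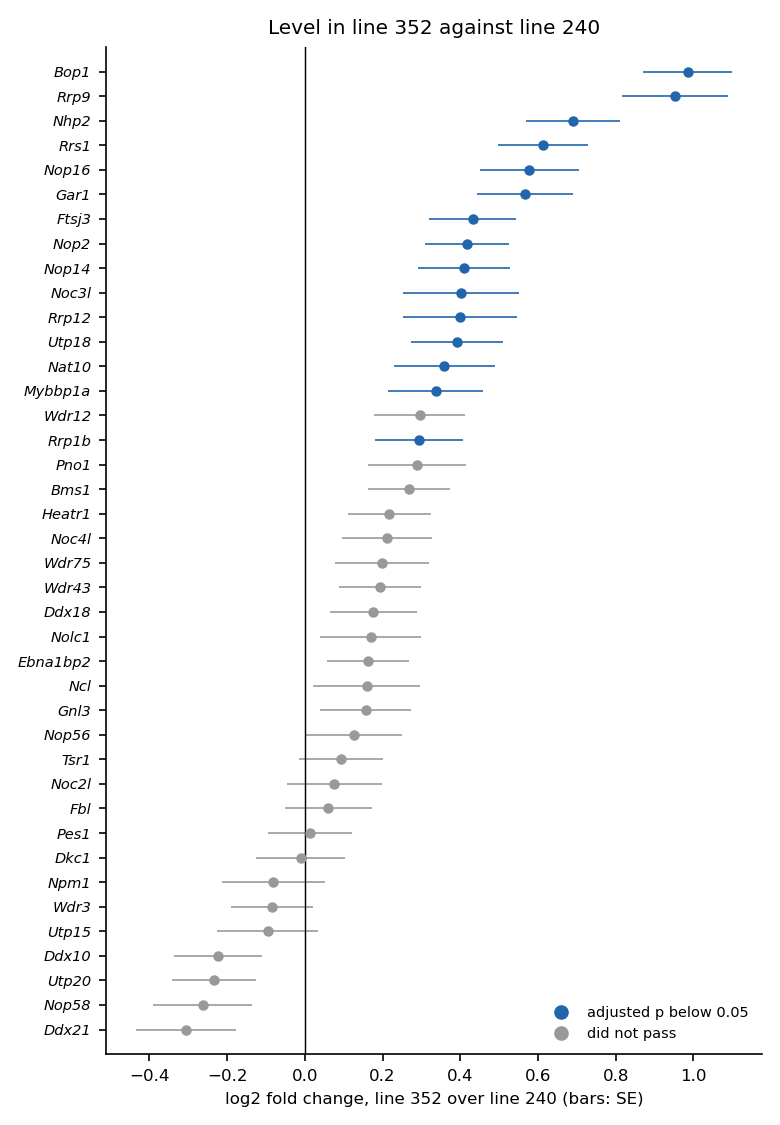
Log2 fold change of line 352 over line 240 (horizontal axis, bars: SE, 4 libraries) for the 40 genes, ordered by size, with genes at an adjusted p below 0.05 in blue. The 15 blue genes run from 0.29 for Rrp1b to 0.99 for Bop1, and the 25 grey ones from -0.31 for Ddx21 to 0.30 for Wdr12.

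Some of the 40 genes share bases with a neighbour, and the strand setting of the counting is not given in the sources used here. By the coordinates deposited with the counts, 19 of the 40 overlap another listed gene, 16 of them one on the other strand. For 11 (Bop1, Dkc1, Gnl3, Heatr1, Nhp2, Nop56, Pno1, Rrp9, Tsr1, Wdr12 and Wdr3) the neighbour had more than 5% of the gene's own counts, up to 58.8% for Wdr92, whose span covers all of Pno1. These shares use all counts of the neighbour, so they do not measure the reads in shared bases. The shared stretch ran from 5 bases (Nop56 and Idh3b) to 8371 bases (Pno1 and Wdr92). Its effect on the values of these 11 was not tested. Introns of Dkc1, Gnl3, Ncl, Nop56, Nop58, Tsr1 and Wdr43 host snoRNAs, whose 21 entries summed to 279 counts over the 6 libraries.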

How the data were processed

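Libraries were made from poly(A) RNA of 3 lines with a stranded kit. There were 12 deposited count files, for 6 libraries in 2 lanes each. The counts that the authors deposited carry no normalization. HISAT2, HTSeq, edgeR and mm10 stand in the submitters' processing notes, while the study's methods name TopHat. For the versions, the annotation and the strand setting, nothing is given in the sources used here. Lanes of a library, described as the same library, were summed. Their chi-square per degree of freedom was 0.98 to 1.015 in lines 240 and 242. In line 352 it was 2.05 for the PKF118-310 library and 2.01 for the control, a spread that the counting intervals do not include.

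Counts were tested in R 4.3.3 with edgeR 4.0.16 (filterByExpr, TMM, quasi-likelihood F test, 2-sided, Benjamini-Hochberg adjustment, threshold 0.05) with the cell line as a block, since each line comes from 1 animal. Paired libraries deviated together (correlations 0.67, 0.30 and 0.79 in lines 240, 242 and 352). The SE was derived from the fold change and F. DESeq2 1.42.0 was an alternative. Within a line, 1 library per group allowed no test. Scripts were tested on simulated data. Of the 52535 symbols, 48108 matched GENCODE vM21. Values per library are printed for the 2 most abundant genes of each of 8 roles, the 2 highest and 2 lowest fold changes in lines 240 and 352, the 3 smallest p between lines, and any gene with a sign unlike the rest (none). Part of the marker values is not reported here. Outside the 40 genes, Myc and the most abundant gene of each list are named. The 40 genes, the lists and the fit without line 242 were chosen with earlier results of these data known. Alternatives changed the scaling, filter, lanes, depth, prior count, block and test.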

Additional observations from a re-analysis of the deposited data

Results flagged for a closer look

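The ratio of PKF118-310 over control within line 242 lay on the other side of 0 from that in lines 240 and 352 for 3 lists. The 40 assembly factors had a median log2 ratio of -1.23 in line 242, against 0.73 and 0.46 in lines 240 and 352, and they were chosen for this difference. The 97 other ribosome assembly genes had -0.59, against 0.50 and 0.37, and RNA polymerase I and its factors had -0.29, against 0.41 and 0.23. The difference between lines in the response was not tested, since each line has 1 library per group. The treated library of line 242 is also the shallowest, with 604984 counts and 11.8% of them mitochondrial, and its part in the difference was not tested.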

How the results depend on the processing

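Across 3 lines, edgeR called 0 genes, and 45 were called with DESeq2, 312 without the filter and 3 to 1285 with 1 line left out (1285 without line 242, 7 without line 240 and 3 without line 352). In lines 240 and 352 the 1285 calls became 265 with DESeq2, 718 with at least 10 counts in every library, 753 from lane 2, 0 without the replicate block and 421 after thinning. Without the filter, the median of all genes moved to 0.51 (3 lines) and 0.17 (2 lines). Leaving out 1 more line or 1 treatment in the 4-library fits leaves no residual degrees of freedom and was not run. For line 352 over line 240 the 5257 calls became 2824 with DESeq2, 2596 without the treatment term, 452 with all 6 libraries and 2366 after thinning, and the share of calls that were higher was 55.5%, or 62.9% without the filter. Thinning in the 4-library fits and the fit of all 6 libraries were chosen after seeing the data. The median ratio of the 40 genes kept its sign under every alternative run. In line 240 it became 0.69 thinned and 0.65 from lane 1. In line 242 it became -1.29 without mt- genes, -1.08 thinned and -1.13 from lane 2. In line 352 it became 0.49 by totals of the tested genes without TMM and 0.52 thinned. Single genes near 0 crossed it, at most 4 of 40 (line 242, lane 2). In line 352 Fbl reversed when thinned (-0.092), as did Gar1 from lane 1 (-0.027), and the cause was not tested. Depth limits line 242 most, where the 40 genes had a median of 44 counts in the treated library.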
